A study of Mus musculus with 12 samples.

Results

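The genes described here are 10 components and targets of the Wnt/β-catenin pathway, chosen by symbol with earlier results of these data known. They are the ligand Wnt3, the receptors Fzd5, Fzd7 and Lgr4, and the membrane ubiquitin ligases Rnf43 and Znrf3. The others are the cytoplasmic feedback inhibitors Axin2 and Nkd1, the transcription factor Tcf7 and the growth regulator Myc. All 10 had a row among the 18068 genes of the deposited count table. The RNA came from enteroids, small epithelial structures cultured from intestinal crypts, in this case from wild-type C57Bl/6 ileum. There were 4 groups of 3 libraries: untreated enteroids, enteroids given 1 mM butyrate for 48 h, enteroids given 20 ng/mL IL-13 for 72 h, and enteroids given both at these doses and times. Butyrate is a short-chain fatty acid made by gut bacteria, and IL-13 is a type 2 cytokine. All groups shared the strain and the organoid culture medium; the sources used here do not list what the medium contained, so any Wnt or R-spondin supplied with it is not known. Whether replicates were separate mice or cultures is not labelled, so p-values measure the spread between these libraries, which may be technical.

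Wnt ligands bind Frizzled receptors and the co-receptors Lrp5 and Lrp6, which stops the Axin- and Apc-based destruction complex from degrading β-catenin; β-catenin then enters the nucleus and activates genes with TCF proteins. Rnf43 and Znrf3 remove Frizzled receptors from the cell surface, and R-spondins, bound by Lgr receptors, block that removal. In the small intestine the pathway maintains crypt stem cells, and Paneth cells are an epithelial source of Wnt3.

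Library totals ran from 13867982 to 24294456 counts, and the IL-13 and double-treated libraries (13867982 to 15618074) were shallower than the others. The 10 epithelial markers examined summed to 9828 to 13690.1 CPM (counts scaled to a common library size with the TMM factors of edgeR), whereas 10 mesenchymal markers summed to 2.34 to 6.37 CPM. Butyrate replicate 2 and double-treated replicate 3 stood apart in Lars2, at 5048 and 6983 CPM; the remaining libraries lay between 423 and 1434 CPM. For the 10 genes, calls that changed without these libraries are given with their values. Because these are bulk libraries, fewer cells of a type and less RNA per cell cannot be told apart.

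Wnt3 and Axin2 fell most among the 10 genes, and did so furthest when butyrate and IL-13 were combined: Wnt3 to 13.3% and Axin2 to 21.1% of the untreated mean. No member was called higher in any comparison (0 of 9 with edgeR, also at an unadjusted p under 0.05, and 0 with DESeq2), and Lgr4 was called in none. Calls rest on the quasi-likelihood test of edgeR fitted to all genes, with Benjamini-Hochberg adjustment and a threshold of 0.05. Nkd1, with 4 to 11 counts per library, did not pass the filter on low counts, so 9 members were tested. IL-13 alone lowered 6 of the 9 (background over all tested genes: 43.5% called, 21.8% higher and 21.7% lower). Butyrate alone lowered 1 of the 9 (background 7.9% called, 5.14% higher and 2.76% lower). Adding butyrate to IL-13 lowered 4 (background 21.2% called, 9.85% higher and 11.3% lower), and adding IL-13 to butyrate lowered 6 (background 47.7% called, 22.9% higher and 24.9% lower). Against untreated enteroids the double treatment lowered 7 (background 59.7% called, 28.2% higher and 31.5% lower). The interaction, which asks whether the effect of butyrate differed with and without IL-13, was called for Wnt3 alone of the 9 (background 0.865% called, 0.255% higher and 0.611% lower). The median log2 fold change of the 9 was -0.37 for IL-13, -0.05 for butyrate and -0.44 for both agents over untreated, against -0.01, -0.01 and -0.05 over all tested genes.

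The scaling of the libraries moves these backgrounds. With library totals alone the median of all genes shifted to -0.18 for IL-13, -0.08 for butyrate, -0.14 for both agents over IL-13, -0.27 over butyrate and -0.34 over untreated. The calls over all genes, 2997 higher and 2980 lower for IL-13 with TMM, then became 1822 higher and 4651 lower. For butyrate 707 higher and 379 lower became 505 and 569, and for both agents over IL-13 1355 and 1557 became 659 and 2689. For both agents over butyrate 3144 and 3420 became 1691 and 5793, and over untreated 3877 and 4328 became 2155 and 6846. No called member changed direction with that scaling.

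**Figure D1:**
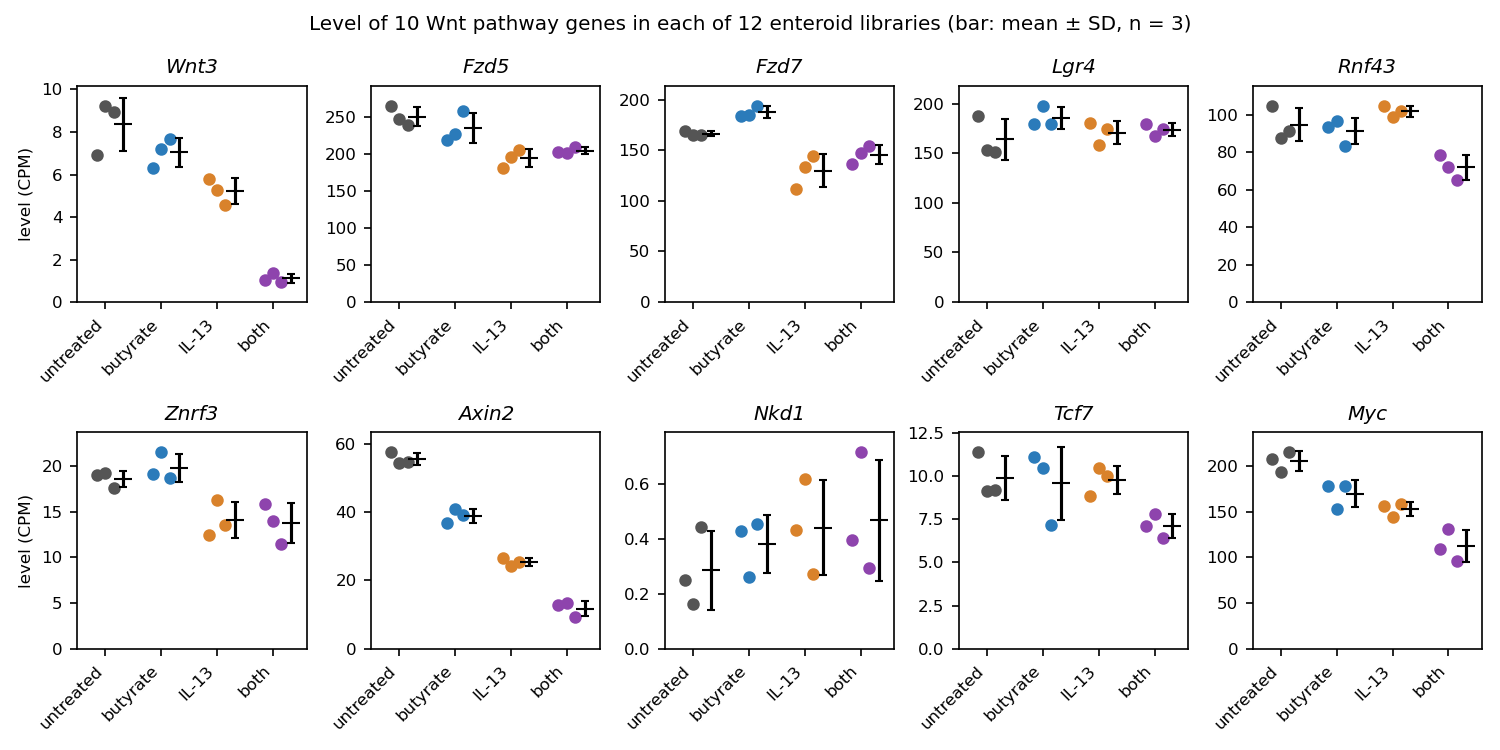
Level of each of the 10 genes in CPM (vertical axis, starting at 0) in each of the 12 libraries, by group. Points are libraries and the bar beside them is the mean ± SD (n = 3). In Axin2 the 4 groups occupy separate ranges, and in Wnt3 the double-treated libraries sit between 0.951 and 1.35 CPM, below all others.

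Wnt3, the only ligand among the 10 (ENSMUSG00000000125, mm10 chromosome 11, 103774150 to 103817957, plus strand), was a low-abundance transcript whose level with both agents was far below every other group. The untreated libraries held 6.94, 9.24 and 8.92 CPM, and the butyrate libraries 6.3, 7.18 and 7.65 CPM. The IL-13 libraries held 5.77, 5.29 and 4.56 CPM, and the double-treated libraries 1.03, 1.35 and 0.951 CPM. Only the untreated and butyrate groups overlapped. These levels rest on 165, 228 and 161 counts in the untreated libraries, 161, 138 and 135 with butyrate, 80, 77 and 67 with IL-13, and 13, 17 and 13 with both agents. IL-13 lowered Wnt3 to 62.2% of the untreated mean (log2 fold change -0.68 ± 0.18 SE, edgeR adjusted p = 0.0051). Butyrate alone did not change it detectably (-0.25, 95% interval -0.61 to 0.11, adjusted p = 0.45). Adding butyrate to IL-13 lowered it 4.67-fold (-2.22 ± 0.24, adjusted p = 6.5e-06), and the double treatment was 7.51-fold below untreated (-2.91 ± 0.23, adjusted p = 5.1e-09). The interaction was -1.97 ± 0.30 (interval -2.60 to -1.34, adjusted p = 0.0043), so the effect of butyrate was more negative in the presence of IL-13. By the size of its log2 fold change over untreated, Wnt3 with both agents ranked 185 among the 13750 tested genes, counted from the lowest.

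Markers of Paneth cells, as a summed level, were lower in the double treatment than with IL-13 alone, as Wnt3 was. With IL-13 alone their sum was not below untreated only through the marker Ang4, which rose by more than the sum did. The other Paneth markers together were lower with IL-13 than untreated, as was Wnt3. Ang4 also made up most of the fall in the sum from IL-13 to both agents. It averaged 544 CPM untreated, 2028 with IL-13 and 883 with both agents. The mean sums were 2893, 3472 and 2086 CPM in that order. Counted gene by gene, 6 of the 11 tested markers were called lower with IL-13 and 2 higher (background 21.7% lower and 21.8% higher). Their median log2 fold change was -0.53. The 13 Paneth markers of 18 that were in the table summed to between 2398 and 3296 CPM untreated, 3836 and 4814 with butyrate, 3007 and 4102 with IL-13, and 1684 and 2434 in the double treatment. Of the 11 tested, 2 rose and 9 fell with both agents over untreated (8 fell without both Lars2-high libraries), IL-13 alone raised 2 and lowered 6, and butyrate alone raised 3 and lowered 0 by edgeR (2 were lower at an unadjusted p under 0.05 and 0 by DESeq2). Butyrate added to IL-13 raised 2 and lowered 5 (3 without both Lars2-high libraries). Mmp7, a Paneth cell protease, averaged 140.1 CPM untreated, 144 with butyrate, 35 with IL-13 and 23.3 with both agents. The lysozyme gene Lyz1 averaged 843, 2101, 235 and 363 CPM in that order. The 2 genes that rose with IL-13 and with both agents over untreated were Ang4, an antimicrobial ribonuclease, and Nupr1, a stress-response gene. Ang4 averaged 544, 598, 2028 and 883 CPM in the order untreated, butyrate, IL-13, both, and Nupr1 averaged 125, 176, 189 and 259 CPM. The defensin genes Defa17 and Defa21 had at most 1 and 3 counts in any library; Defa17 was at 0 with both agents and Defa21 at 0 with IL-13 and with both. The interaction was called lower for 2 of the 11 tested Paneth markers and higher for 0 by edgeR, against 0.611% lower over all tested genes. DESeq2 called 1 lower, as did edgeR without both Lars2-high libraries. The median interaction of the 11 was -0.69, against -0.02 over all tested genes. The part of Paneth cells in the Wnt3 result was not tested.

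The receptors changed little by comparison. Fzd5 (ENSMUSG00000045005, chromosome 1, 64730560 to 64737750, minus strand), a Frizzled receptor of the intestinal epithelium, held 265, 247 and 239 CPM untreated, 219, 227 and 258 with butyrate, 181, 196 and 205 with IL-13, and 202, 201 and 209.8 with both agents. All 6 libraries given IL-13 lay below all 6 without it. IL-13 lowered Fzd5 by a log2 fold change of -0.37 ± 0.08 (edgeR adjusted p = 0.0014) and the double treatment by -0.29 ± 0.08 (adjusted p = 0.0046), while both agents over butyrate missed the threshold (-0.20, interval -0.37 to -0.03, adjusted p = 0.051) and passed it without both Lars2-high libraries (-0.24, adjusted p = 0.048). Exons of Fzd5 share 17.8% of their bases with the antisense gene Gm38058, and the sources used here do not say whether counting used strand, so reads of that stretch cannot be assigned.

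Fzd7 (ENSMUSG00000041075, chromosome 1, 59482147 to 59486947, plus strand), a Frizzled receptor of intestinal stem cells, held 169, 165 and 165 CPM untreated and 184, 185 and 194 with butyrate. With IL-13 it held 112, 133 and 144 CPM, and with both agents 136, 147 and 154 CPM. The IL-13 groups lay below the other libraries and overlapped each other. IL-13 lowered Fzd7 (-0.36 ± 0.09, edgeR adjusted p = 0.0029), also in the presence of butyrate (-0.37 ± 0.09, adjusted p = 0.0021). Butyrate libraries lay wholly above untreated ones without passing the test (0.17, interval -0.01 to 0.36, adjusted p = 0.26). Both agents over untreated gave -0.19 (interval -0.38 to -0.01, adjusted p = 0.066), which passed the threshold without both Lars2-high libraries (-0.24, adjusted p = 0.038).

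Lgr4 (ENSMUSG00000050199, chromosome 2, 109917647 to 110014257, plus strand), the R-spondin receptor expressed widely in the crypt, ranged from 151 to 198 CPM over all 12 libraries with every pair of groups overlapping. Its log2 fold changes were 0.06 for IL-13 (interval -0.13 to 0.25, edgeR adjusted p = 0.64), 0.17 for butyrate (-0.01 to 0.36, adjusted p = 0.28) and 0.08 for both agents (-0.11 to 0.27, adjusted p = 0.46). With library totals alone the first became -0.11 and the last -0.21 (adjusted p = 0.043). Its relative Lgr5, the stem cell marker of the same family, behaved differently: it averaged 9.17 ± 2 CPM (SD, n = 3) untreated, 26.4 ± 6.12 with butyrate, 1.76 ± 0.955 with IL-13 and 2.54 ± 1.53 with both agents. Butyrate raised Lgr5 (1.52 ± 0.27, adjusted p = 0.0015) and IL-13 lowered it (-2.38 ± 0.36, adjusted p = 3.7e-05).

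Axin2, a scaffold of the destruction complex that is itself a general target of the pathway, fell in every comparison between groups. The gene (ENSMUSG00000000142) lies on chromosome 11, 108920349 to 108950783, plus strand. Untreated libraries held 57.6, 54.5 and 54.6 CPM, butyrate libraries 36.7, 40.8 and 39.2, IL-13 libraries 26.7, 24.2 and 25.3, and double-treated libraries 12.7, 13.3 and 9.14. No pair of groups overlapped, in the order untreated, butyrate, IL-13, both. Butyrate alone left 70.1% of the untreated mean (-0.51 ± 0.11, edgeR adjusted p = 0.0053) and IL-13 left 45.7% (-1.13 ± 0.11, adjusted p = 2.6e-07). Butyrate added to IL-13 lowered Axin2 2.17-fold (-1.12 ± 0.12, adjusted p = 8.1e-06), and IL-13 added to butyrate lowered it 3.32-fold (-1.73 ± 0.12, adjusted p = 2.3e-09). With both agents it was 4.75-fold below untreated (-2.25 ± 0.12, adjusted p = 3.8e-11). The interaction was -0.60 ± 0.16 and was not called by edgeR (adjusted p = 0.11), whereas DESeq2 called it (adjusted p = 0.034). The authors' deposited table gave a log2 fold change of -1.125 for Axin2 in its comparison of IL-13 with untreated libraries. Gm11670, an antisense gene that shares 3.8% of the exon bases of Axin2, had 93 counts in all libraries together.

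The promoters of Axin2 and Wnt3, the members with the largest changes, are shown with that of Fzd7, the only member whose window held TCF/LEF letters. Each is the 250 bases before the RefSeq start in GRCm38.p6 (mm10), plus strand, 5′ to 3′. Capitals mark a match on either strand to CTTTG followed by a pair of bases that are each A or T, the core letters recognised by TCF proteins.
Axin2 (chr11:108920099-108920348): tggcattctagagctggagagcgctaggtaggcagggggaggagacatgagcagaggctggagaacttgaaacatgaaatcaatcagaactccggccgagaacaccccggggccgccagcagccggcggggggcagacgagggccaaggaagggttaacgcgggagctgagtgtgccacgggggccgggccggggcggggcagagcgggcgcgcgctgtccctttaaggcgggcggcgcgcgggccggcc
Wnt3 (chr11:103773925-103774174): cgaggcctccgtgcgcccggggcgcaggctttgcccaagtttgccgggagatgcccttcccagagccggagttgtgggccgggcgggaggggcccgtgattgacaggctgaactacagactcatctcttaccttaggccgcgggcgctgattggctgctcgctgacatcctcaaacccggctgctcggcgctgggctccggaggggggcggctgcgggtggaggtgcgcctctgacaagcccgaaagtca
Fzd7 (chr1:59481897-59482146): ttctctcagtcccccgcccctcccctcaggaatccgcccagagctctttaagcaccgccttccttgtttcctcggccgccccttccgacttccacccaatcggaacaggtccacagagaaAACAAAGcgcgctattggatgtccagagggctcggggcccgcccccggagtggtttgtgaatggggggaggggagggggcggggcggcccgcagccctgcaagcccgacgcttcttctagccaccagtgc
The match in Fzd7, read as AACAAAG on the printed strand, begins 130 bases before the RefSeq start. The GENCODE M21 annotation starts Fzd7 farther downstream, at 59482424, so the distance depends on the annotation. Znrf3 and Myc had no window and were not searched. The same letters were searched in the windows of 8 members, 10 windows in all, and 1 of the 10 held a match, against 14.8% of the 32851 windows of all genes. The Axin2, Wnt3 and Fzd7 windows held 24, 22 and 17 CpG dinucleotides, against a median of 6.0 over all windows. A match is a string of letters and no evidence of binding, and sites outside these windows were not searched.

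Rnf43 and Znrf3, the paired ligases that limit Frizzled at the membrane, followed different patterns. Rnf43 (ENSMUSG00000034177, chromosome 11, 87662722 to 87735539, plus strand) held 105, 87.9 and 91.7 CPM untreated, 93.7, 96.8 and 83.6 with butyrate, 105, 99.1 and 102 with IL-13, and 78.7, 72.2 and 65.1 with both agents. Only the double-treated libraries stood below all others. Neither agent alone changed it detectably: 0.11 for IL-13 (interval -0.09 to 0.30, edgeR adjusted p = 0.36) and -0.05 for butyrate (adjusted p = 0.81). Butyrate added to IL-13 lowered it 1.42-fold (-0.51 ± 0.09, adjusted p = 9.7e-04), and both agents over untreated gave -0.40 ± 0.09 (adjusted p = 0.0014). The interaction of -0.45 ± 0.13 was not called (adjusted p = 0.14). The call of both agents over butyrate (-0.34 ± 0.09, adjusted p = 0.0055) was lost without double-treated replicate 3 (adjusted p = 0.054) and without both Lars2-high libraries (adjusted p = 0.076).

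Znrf3 (ENSMUSG00000041961, chromosome 11, 5276324 to 5444847, minus strand) held 19, 19.2 and 17.6 CPM untreated, 19.1, 21.5 and 18.7 with butyrate, 12.4, 16.3 and 13.5 with IL-13, and 15.8, 14 and 11.4 with both agents. All 6 libraries given IL-13 lay below the other 6. No effect of butyrate was detected without IL-13 (0.09, adjusted p = 0.77) or with it (-0.04, interval -0.34 to 0.26, adjusted p = 0.89). IL-13 lowered it by -0.40 ± 0.14 (edgeR adjusted p = 0.023), and the double treatment by -0.44 ± 0.14 over untreated (adjusted p = 0.011) and -0.53 ± 0.14 over butyrate (adjusted p = 0.0043). The IL-13 call was lost without untreated replicate 1 (adjusted p = 0.064) or 2 (0.073), and without IL-13 replicate 1 (0.11) or 3 (0.074). The call of both agents over untreated was lost without double-treated replicate 3 (0.097) and without both Lars2-high libraries (0.058), where that over butyrate was also lost (-0.35, adjusted p = 0.075).

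Nkd1 (ENSMUSG00000031661, chromosome 8, 88521344 to 88594887, plus strand), an antagonist that binds Dishevelled, was near the limit of detection. It had 6, 4 and 8 counts in the untreated libraries, 11, 5 and 8 with butyrate, 6, 9 and 4 with IL-13, and 5, 9 and 4 with both agents. The groups overlapped throughout at 0.162 to 0.717 CPM, and no difference was detectable at this depth.

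Tcf7 (ENSMUSG00000000782, chromosome 11, 52252371 to 52283014, minus strand), which encodes TCF1, a nuclear partner of β-catenin and also a target gene, held 11.4, 9.12 and 9.2 CPM untreated, 11.1, 10.5 and 7.19 with butyrate, 8.87, 10.5 and 10 with IL-13, and 7.12, 7.81 and 6.44 with both agents. The double-treated libraries lay below the untreated and the IL-13 libraries and overlapped the butyrate libraries. It was called only for both agents over untreated (-0.48 ± 0.18, edgeR adjusted p = 0.026). That call was lost without untreated replicate 1 (adjusted p = 0.12), double-treated replicate 1 (0.075) or 3 (0.12), and without both Lars2-high libraries (0.083). IL-13 alone gave -0.02 (interval -0.38 to 0.34, adjusted p = 0.94), and butyrate added to IL-13 gave -0.46 (interval -0.84 to -0.08, adjusted p = 0.081).

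Myc (ENSMUSG00000022346, chromosome 15, 61985391 to 61990374, plus strand), a transcription factor that drives growth and is a classical target of β-catenin in crypts, held 207, 193 and 215 CPM untreated and 178, 153 and 178 with butyrate. It held 156, 144 and 158 CPM with IL-13 and 109, 131 and 96 with both agents. The double-treated libraries lay below all others, the butyrate and IL-13 libraries overlapped, and the untreated libraries were highest. IL-13 lowered Myc by -0.42 ± 0.10 (edgeR adjusted p = 0.0022), and both agents left 54.6% of the untreated mean (-0.87 ± 0.10, adjusted p = 7.6e-07). Butyrate added to IL-13 lowered it by -0.45 ± 0.10 (adjusted p = 0.0042), whereas butyrate alone did not pass the test (-0.27, interval -0.48 to -0.06, adjusted p = 0.11).

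Proliferation genes fell with IL-13 and with both agents, as Axin2 and Myc did. With butyrate alone Axin2 was called lower, and Myc lay below untreated in every library without being called. A difference between these genes was not tested. The 18 markers of dividing cells summed to between 1444 and 1514 CPM untreated, 1241 and 1447 with butyrate, 470.4 and 647 with IL-13, and 346 and 407 in the double treatment. All 18 were called lower with IL-13 over untreated and with both agents over untreated, 11 fell when butyrate was added to IL-13, and 0 of 18 were called for butyrate alone by edgeR, where 4 were lower at an unadjusted p under 0.05 and DESeq2 called 2 lower, as did edgeR without both Lars2-high libraries; in that fit 10 fell when butyrate was added to IL-13. The interaction was called lower for 3 of the 18 and higher for 0 by edgeR, with a median of -0.45 against -0.02 over all tested genes. Without both Lars2-high libraries 1 was called lower. None of the 18 was at 0 in the table, and the part of dividing cells in these results was not tested.

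**Figure D2:**
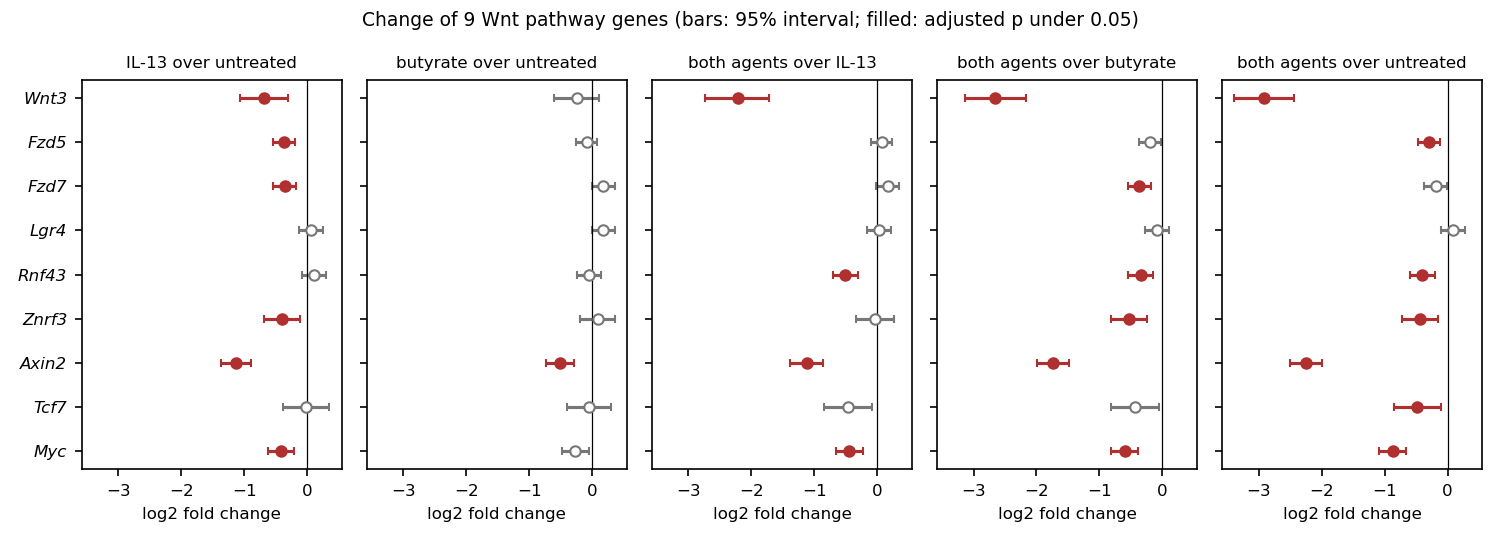
Log2 fold change (horizontal axis) of the 9 tested genes in 5 comparisons, with 95% intervals as bars; filled points passed an adjusted p of 0.05. Wnt3 and Axin2 lie farthest to the left with both agents, at -2.91 and -2.25 over untreated, and Lgr4 has an open point in every panel.

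If the effects of butyrate and IL-13 multiplied, the level with both agents would be the product of their ratios to untreated. For Wnt3 that product was 4.38 CPM and the observed mean was 1.11 CPM, a ratio of 0.254. For Axin2 it was 17.8 against 11.7 CPM (ratio 0.659), and for Rnf43 98.6 against 72 CPM (0.731). Tcf7 (0.753), Nkd1 (0.797), Myc (0.885), Lgr4 (0.9) and Znrf3 (0.919) also lay below the product, Fzd7 lay at it (0.995), and Fzd5 above it (1.12). Among the 9 tested genes the departure was called for Wnt3 alone, and an unadjusted p under 0.05 was found for 3. In simulated data the interaction test recovered 35.8% of 1.5-fold departures, so a gene that was not called may still depart from the product.

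**Figure D3:**
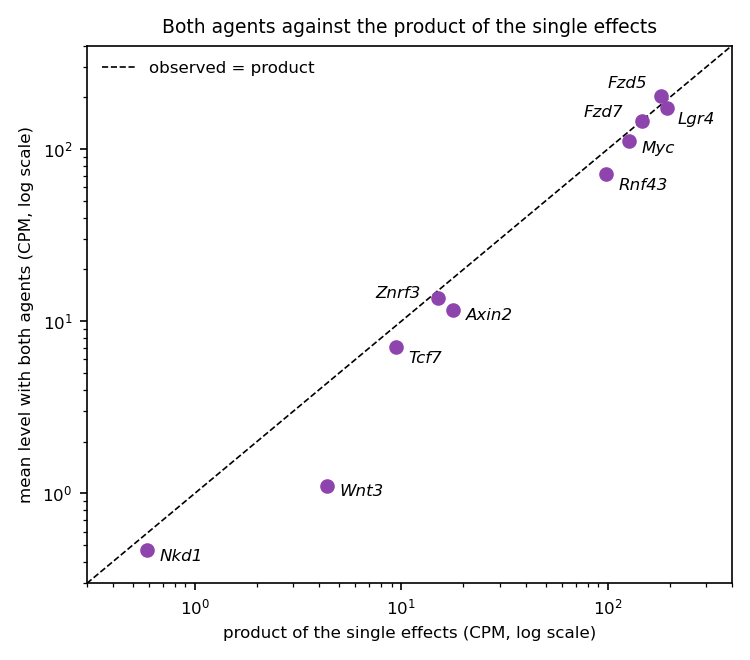
Observed mean CPM with both agents (vertical, log scale) against the product of the single effects (horizontal, log scale), 1 point per gene, with the line of equality dashed. Wnt3 lies farthest below the line, at 1.11 CPM against a product of 4.38, and the Frizzled receptors lie near it.

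Compared per kilobase of exon, the untreated enteroids held most Myc (75.5 CPM per kb), then Fzd7 (36.7), Fzd5 (36.2), Lgr4 (27.9), Rnf43 (14.5), Axin2 (10.1), Tcf7 (3.78), Wnt3 (2.72), Znrf3 (2.36) and Nkd1 (0.0627). Fzd7 and Fzd5 overlapped in their libraries, as did Wnt3 and Znrf3, and all other neighbours in the order were apart. Of the 10 genes, 5 lie on chromosome 11 (Axin2, Znrf3, Rnf43, Tcf7 and Wnt3), which holds 8.62% of the genes of the table.

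The genes whose pattern over the 12 libraries was most like that of Axin2 were found by the root mean square difference of log2 CPM, each gene centred on its own mean, among 10260 genes. They were Slc29a1 (0.14), a nucleoside transporter, Prss12 (0.16), a secreted protease, Dnahc11 (0.17), a dynein heavy chain, Txndc5 (0.17), an endoplasmic reticulum oxidoreductase, and Cdca5 (0.18), the cohesion factor sororin. Slc29a1 averaged 43.7 CPM untreated, 28.2 with butyrate, 19.2 with IL-13 and 8.82 with both agents. The member closest to Axin2 was Wnt3, at rank 444 (0.41), followed by Myc at rank 964, and Lgr4 was the farthest at rank 5177.

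The rest of the pathway was described with 6 lists, of whose 102 genes 92 were in the table and 70 were tested. Of these 70, IL-13 raised 22 and lowered 14, butyrate raised 7 and lowered 3, and both agents over untreated raised 20 and lowered 27, against the backgrounds given above. Butyrate added to IL-13 raised 7 and lowered 15. With library totals alone the IL-13 counts became 13 higher and 18 lower, those of both agents over untreated 12 and 36, and those of both agents over IL-13 3 and 22. Without both Lars2-high libraries, where 72 of the genes were tested, butyrate raised 5 and lowered 3, butyrate added to IL-13 raised 7 and lowered 12, IL-13 raised 24 and lowered 15, and both agents over untreated raised 22 and lowered 24. The medians of the 70 were 0.13, -0.01 and -0.12 for IL-13, butyrate and both agents over untreated.

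Among 9 tested ligands and secretion genes, 2 rose and 1 fell with IL-13, and 2 rose and 4 fell with both agents over untreated. Over all tested genes 21.8% were higher and 21.7% lower with IL-13, and 28.2% higher and 31.5% lower with both agents. Wnt4 rose while Wnt3 fell. Wnt4, a ligand better known for β-catenin-independent signalling, averaged 3.3 ± 1.18 CPM (SD, n = 3) untreated, 11 ± 1.84 with butyrate, 17.6 ± 0.682 with IL-13 and 24.9 ± 3.3 with both agents. Each agent alone raised it (log2 fold change 1.77 for butyrate and 2.44 for IL-13, edgeR adjusted p = 2.0e-05 and 2.0e-08), and both together by 2.94. Its interaction was -1.27 ± 0.26 (adjusted p = 0.024), a call lost on leaving out any of 7 of the single libraries (adjusted p up to 0.1). Wls, the carrier that brings Wnt proteins to the cell surface, averaged 87.2 and 89.3 CPM without IL-13 and 54.5 and 54.2 CPM with it, and fell with IL-13 (-0.68 ± 0.10, adjusted p = 2.6e-05). Wnt1 had 0 counts in all 6 libraries without IL-13 and 23 counts in total in each IL-13 group; it was chosen for mention after its values were seen.

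Receptors other than the members moved in both directions. With IL-13, 3 of 13 tested were higher and 5 lower (background 21.8% higher and 21.7% lower). With both agents over untreated 3 were higher and 8 lower (background 28.2% higher and 31.5% lower). Fzd4 averaged 16.1 ± 1.06 CPM untreated, 22.6 ± 0.539 with butyrate, 55.4 ± 1.46 with IL-13 and 72.2 ± 3.04 with both agents (2.16 ± 0.09 over untreated, edgeR adjusted p = 1.4e-12). Fzd2 went the other way, from 11.2 ± 1.55 CPM untreated to 3.85 ± 1.02 with IL-13 and 2.15 ± 1.27 with both agents. The Wnt5a co-receptor Ror2 averaged 21.8, 18.1, 10.5 and 7.04 CPM in the order untreated, butyrate, IL-13, both. Lrp5, a co-receptor of Frizzled, rose from 225 ± 8.8 CPM untreated to 384 ± 35 with both agents (0.77 ± 0.09, adjusted p = 6.2e-07).

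Secreted and membrane inhibitors were called higher in 3 of 5 tested with IL-13 (2 higher and 1 lower with library totals alone) and 2 of 5 with butyrate. With both agents over untreated 3 were higher and 1 lower (2 and 1 with library totals alone). Over all tested genes 21.8% were higher with IL-13 and 5.14% with butyrate. With both agents 28.2% were higher and 31.5% lower. Notum, a secreted enzyme that inactivates Wnt by removing its lipid, averaged 3.37 ± 0.639 CPM untreated, 8.08 ± 0.509 with butyrate, 11.7 ± 1.63 with IL-13 and 26.4 ± 2.28 with both agents. The 4 means rose from untreated through butyrate and IL-13 to both agents, as did those of Wnt4, Fzd4, Lrp5 and Csnk1a1, among others. Any relation of Notum to the fall of Axin2 was not tested. Notum was called for each agent alone (1.28 and 1.80, edgeR adjusted p = 7.6e-05 and 1.0e-07) and for butyrate added to IL-13 (1.18, adjusted p = 2.5e-05). Kremen2, a co-factor of Dickkopf, averaged 4.97, 7.93, 8.87 and 15.3 CPM in the order untreated, butyrate, IL-13, both. Its butyrate call (adjusted p = 0.047) was lost in 11 of 20 alternatives (adjusted p up to 0.19).

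The list of destruction complex and Dishevelled genes also held Tnks, Tnks2 and Usp34, so not all of its genes are parts of the complex. Of its 17 tested genes, IL-13 raised 8, among them Tnks, Usp34 and Dvl1, and lowered 1 (background 21.8% higher and 21.7% lower). Both agents over untreated raised 8, among them Tnks, Tnks2, Usp34 and Dvl1, and lowered 2 (background 28.2% higher and 31.5% lower). With library totals alone these became 5 higher and 2 lower for IL-13, and 4 higher and 6 lower for both agents; without both Lars2-high libraries they were 9 and 1 in each comparison. Csnk1a1, the kinase that primes β-catenin for degradation, averaged 701 ± 31.4 CPM untreated and 1350.4 ± 95 with both agents (0.95 ± 0.08, edgeR adjusted p = 1.4e-08). Gsk3b, the kinase that follows it, averaged 156 ± 20.8 and 267 ± 18.2 CPM (0.77 ± 0.09, adjusted p = 1.4e-06). Fam123b, whose current name is Amer1, was lower, at 23 ± 2.55 and 12.1 ± 1.07 CPM. Of 11 genes of β-catenin, TCF proteins and their cofactors, 3 rose and 2 fell with IL-13. These counts are near the background of 21.8% higher and 21.7% lower, and became 0 and 2 with library totals alone. Ctnnbip1 was among the genes that fell (log2 fold change -0.51 ± 0.10, edgeR adjusted p = 3.3e-04). Ctnnb1, which encodes β-catenin itself, averaged 1498 ± 42.8 CPM untreated and 1999.6 ± 134 with both agents (0.42 ± 0.07, adjusted p = 8.3e-05), a call lost with library totals alone (adjusted p = 0.13). Tcf7l2, the main TCF of the intestinal epithelium, averaged 32.8, 39, 30.6 and 36.9 CPM and was called in none of the 6 comparisons.

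Other intestinal target genes were mostly lower with both agents, but not with either agent alone. IL-13 alone gave 3 of 15 called higher and 5 lower by edgeR, with a median log2 fold change of 0.15. Butyrate alone gave 0 higher and 2 lower, with a median of -0.17. When butyrate was added to IL-13, 10 of 15 were called lower and 0 higher by edgeR (11 and 1 at an unadjusted p under 0.05, 10 and 0 by DESeq2), with a median of -0.79, against -0.01 over all tested genes. Over untreated, both agents lowered 10 and raised 1, with a median of -0.58 against -0.05. Without both Lars2-high libraries 7 of the 15 were lower over IL-13 and 8 over untreated. The background shares higher and lower were 21.8% and 21.7% for IL-13, and 5.14% and 2.76% for butyrate. For both agents they were 9.85% and 11.3% over IL-13, and 28.2% and 31.5% over untreated. Slc12a2, a chloride co-transporter of crypt cells, averaged 537 ± 44.4 CPM untreated, 517 ± 98.6 with butyrate, 315 ± 18 with IL-13 and 134 ± 26 with both agents. Like Wnt3, it had a called interaction (-1.17 ± 0.19, edgeR adjusted p = 0.0056). Cdca7 averaged 84.3, 65, 29.6 and 14.7 CPM in the order untreated, butyrate, IL-13, both. Ephb3, an ephrin receptor that positions cells in the crypt, rose against the others, from 16.8 ± 1.03 CPM untreated to 27.3 ± 1.9 with both agents (0.70 ± 0.12, adjusted p = 5.6e-05). Sox4 and Cd44 were higher with IL-13 than untreated (341 against 247 CPM and 53.6 against 35.8 CPM) and fell again when butyrate was added, to 196 and 37.4 CPM.

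**Figure D4:**
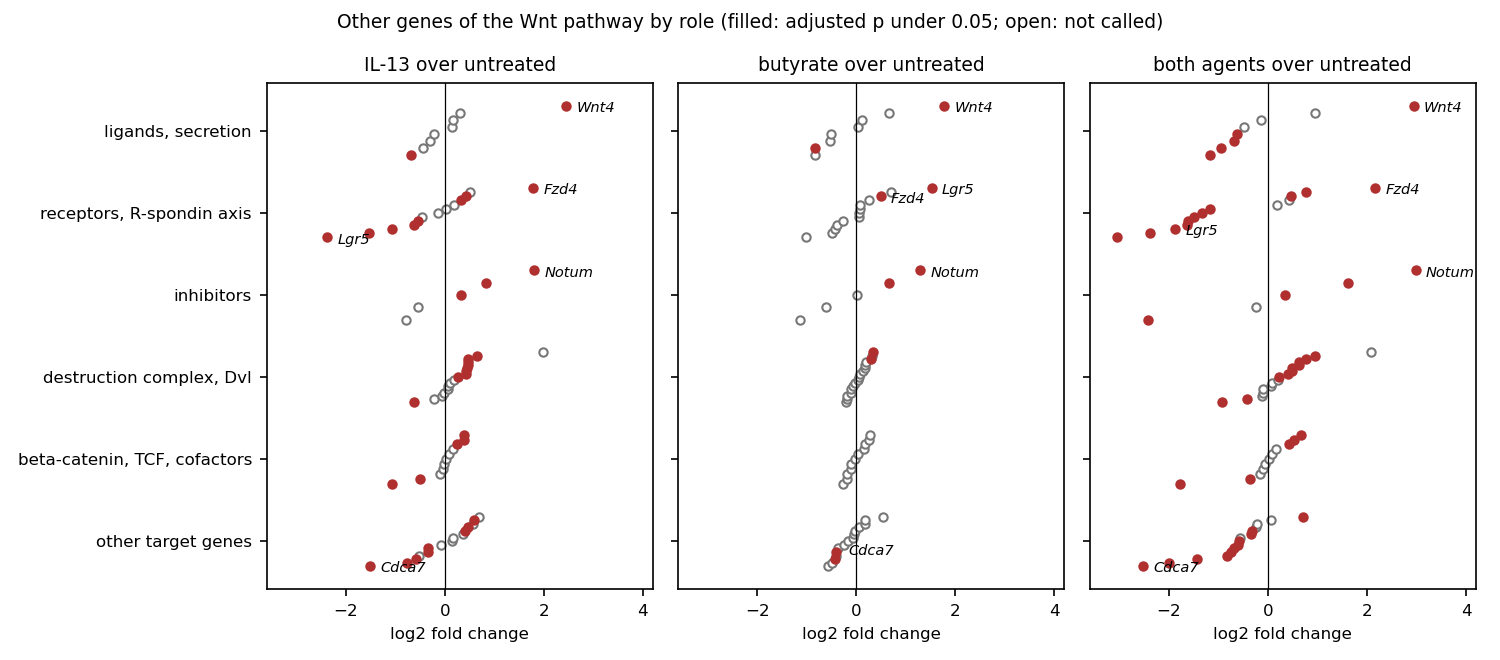
Log2 fold change over untreated (horizontal axis) of the other pathway genes, 1 point per gene, grouped by role, for IL-13, butyrate and both agents; filled points passed an adjusted p of 0.05, and Wnt1, at 0 counts without IL-13, is left out. Wnt4, Fzd4 and Notum lie at the right with both agents (2.94, 2.16 and 2.98), and Cdca7 at the left.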

How the data were processed

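Libraries were directional and poly(A)-selected per the labels' protocols, and mm10 is the build named in the submitters' processing notes; the sources used here do not give the aligner, the counter or its use of strand. The authors deposited whole-number counts per gene and library, not normalised, beside a p-value, an adjusted p-value and a log2 fold change of their DESeq test of IL-13 against untreated enteroids, to which per the file headers the table is limited (corrected p under 1). Its 18092 rows became 18068 genes after rows of 23 genes were summed; 98.4% of rows had an identifier in GENCODE M21, whose exons gave lengths.

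The test was that of edgeR 4.0.16 under R 4.3.3 (TMM, filterByExpr, robust glmQLFit, glmQLFTest) in 1 fit of all 12 libraries with a coefficient per group: 13750 genes kept, 4318 removed, biological coefficient of variation 10.2%, 8 residual degrees of freedom. CPM is the count over the TMM-scaled library total, and standard errors come from the F statistic. DESeq2 1.42.0 was an alternative, with RLE scaling, library totals, other filters, the compared groups only, a replicate block and libraries left out. Scripts were tested on simulated data. Named pathway genes were picked from up to 3 called per list, comparison and direction with a mean of at least 50 counts. Not all genes that met this rule are named. Lgr5, Ctnnb1 and Tcf7l2 were added to them. Mmp7, Lyz1, Ang4, Nupr1, Defa17, Defa21 and Wnt1 were chosen after their values were seen. Dvl1, Tnks, Tnks2 and Usp34 were named to show what their list held. Members, lists and tests were chosen with earlier results of these data known. Promoter windows came from RefSeq (GRCm38.p6). Epithelial, mesenchymal, immune, Paneth and proliferation markers were summed; 7 immune markers of 14 gave 27.2 to 35.1 CPM.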

Additional observations from a re-analysis of the deposited data

Results flagged for a closer look

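The effect of butyrate on Wnt3 differed between enteroids with and without IL-13: the difference of the log2 fold changes, tested as an interaction term, was -1.97. Butyrate moved Wnt3 by -0.25 without IL-13 and by -2.22 with it, and all 3 double-treated libraries lay below every other library. The interaction was called in all 19 alternatives that gave a value.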

How the results depend on the processing

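Over 54 log2 fold changes of the 9 tested genes and up to 20 alternatives each, 1017 of 1071 values kept their direction and their side of the threshold, 13 lost the call, 17 gained it and 24 changed sign. The number of members called was 5 to 6 for IL-13, 1 for butyrate, 4 to 5 for both agents over IL-13, 5 to 9 over butyrate and 5 to 9 over untreated. For the interaction it was 2 with DESeq2, where Axin2 joined Wnt3, and 1 to 2 on leaving out 1 library, where Rnf43 joined without butyrate replicate 3 (adjusted p = 0.045); DESeq2 called 245 genes in all against 119, and leaving out 1 library gave 55 to 213. Butyrate over untreated fell from 1086 to 607 genes without untreated replicate 2, to 559 when untreated replicate 3 was left out and to 624 without butyrate replicate 1, and both agents over IL-13 from 2912 to 1935 without double-treated replicate 3. The interaction restricted to the compared groups is the fit of all groups and gave no further value.

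With library totals alone Rnf43 (-0.06) and Lgr4 (-0.11) changed sign for IL-13, Lgr4 (-0.10) and Fzd5 (-0.05) for both agents over IL-13, and Lgr4 (-0.21) for both agents over untreated; that scaling also called Tcf7, Fzd5, Lgr4 and Fzd7 lower in comparisons where TMM did not. Without both Lars2-high libraries Znrf3 was 0.08 for both agents over IL-13 and 0.06 for the interaction. The interaction of Fzd7 was 0.01 with RLE scaling and with DESeq2. Leaving out 1 library, sign changes occurred in Tcf7 for IL-13 (-0.08 to 0.10) and butyrate (-0.17 to 0.12), Rnf43 for butyrate (-0.11 to 0.03), Znrf3 (-0.13 to 0.10) and Lgr4 (-0.03 to 0.06) for both agents over IL-13, and Znrf3 (-0.22 to 0.00) and Fzd7 (-0.10 to 0.07) for the interaction. The cause of these changes was not tested.

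No shared deviation of same-numbered libraries was detected: over 18 such pairs the correlation of deviations from the group means ran from -0.15 to 0.1, with 0 over 0.1. These values cannot settle whether libraries of the same number shared a mouse or culture, which is not labelled. With the replicate number as a block the members called were 6, 1, 4, 6, 7 and 1, the same counts as without it, and all genes called were 5866 for IL-13 and 114 for the interaction. Nkd1 was limited by depth, and 3 libraries per group limit the precision of every value.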
